A study of Homo sapiens with 4 samples.

Results

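The microRNA pathway genes described here are DICER1, DROSHA, DGCR8, XPO5, AGO1, AGO2, TNRC6A and TNRC6B, 8 genes among 18156 groups of neighbouring RNA 3′ ends in HEK293 cells. They were chosen by gene name, and their reads were taken from strand-specific windows on the human build hg19 set by hand around each gene. A group of neighbouring 3′ ends is called a locus below. Its ends, called sites, lay on 1 strand within 10 kb of the most used one, and each site gathered the cleavage positions within 25 nt of a top position.

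MicroRNAs are short RNAs that guide repression of messenger RNAs. In the nucleus, the Microprocessor, made of the ribonuclease DROSHA and its RNA-binding partner DGCR8, cuts the hairpin precursor out of the primary transcript. XPO5 (exportin 5) carries the hairpin to the cytoplasm, where DICER1 cuts it to a short duplex. An Argonaute protein takes up 1 strand of the duplex. AGO2 is the human Argonaute best known for slicing a fully matched target. The GW182 proteins TNRC6A and TNRC6B bind Argonaute and recruit the deadenylases that shorten the poly(A) tail of the target. Several of these genes have long 3′ UTRs, and the end of a 3′ UTR is set by the choice of the cleavage and polyadenylation site.

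HEK293 cells, a line from human embryonic kidney, were profiled in 4 groups with 1 library each: cells with an siRNA against CF Im 68, cells with an siRNA against CstF-64, cells with a scrambled control siRNA, and cells that received no siRNA. The siRNA cells were harvested after 3 days. CF Im 68 (gene CPSF6) belongs to cleavage factor I, the complex that recognises UGUA elements ahead of a poly(A) site, and CstF-64 (gene CSTF2) is the subunit of the cleavage stimulation factor that binds U- and GU-rich RNA after it. The method, A-seq, reads the junction of a transcript and its poly(A) tail, so that each read reports the position of 1 RNA 3′ end. Each factor was targeted with a single duplex, and no group had a replicate, so every test below compares 2 libraries and not 2 conditions. The cell line was not checked against marker genes here.

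The 2 duplexes are shown because they define the CF Im 68 siRNA and CstF-64 siRNA groups. Each is given 5′ to 3′ as 1 strand from the labels, where n stands for a base that the labels do not specify.
CF Im 68 siRNA: nngaccgagauuacauggaua
CstF-64 siRNA: nnccugaaugggcgcgaauuc

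The libraries held 12792623 reads with CF Im 68 siRNA, 7343112 with CstF-64 siRNA, 13443454 with control siRNA and 15806975 without siRNA. CPSF6, the target of the first siRNA, had 134 RPM (reads per 1000000 reads of the library) with CF Im 68 siRNA and 180 RPM with CstF-64 siRNA, against 186 RPM with control siRNA and 164 RPM without siRNA. Its level with CF Im 68 siRNA was thus 0.72 times that with control siRNA (exact 95% interval 0.68 to 0.76). CSTF2, the target of the second, had 31.3 RPM in its window with CF Im 68 siRNA and 15.9 RPM with CstF-64 siRNA, against 20.6 RPM with control siRNA and 34.7 RPM without siRNA. The CSTF2 window with CstF-64 siRNA was thus 0.77 times that with control siRNA (0.62 to 0.96), and it included 82 reads at an upstream site that no other library held. CSTF2 had 30.6 RPM at its main end with CF Im 68 siRNA and 4.49 RPM with CstF-64 siRNA, against 19.9 RPM with control siRNA and 34.4 RPM without siRNA. The RNA of each targeted gene was thus lowest in the library with the siRNA against it. These are RNA levels and not protein. The CF Im 68 siRNA and CstF-64 siRNA libraries are called depleted below, after the siRNA that they received. All intervals cover counting error only, since each group had 1 library. Copies of 1 fragment made in the PCR could not be told apart. The intervals and p-values treat reads as independent, so they can understate even the counting error.

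The 8 genes had 30 sites of at least 1 RPM on average over the libraries, of which 24 lay inside the windows and 6 beyond them. The sites beyond the windows were 3 of AGO2, 2 of XPO5 and 1 of AGO1. They followed the windows on the same strand within the same loci, and whether they belong to the named genes was not tested, since an annotation of hg19 was not used here. Reads primed within A-rich stretches of a transcript were not separated from true ends. For each locus, the 2 most used sites formed a pair, and the pair reads at the site nearer the gene's start, in percent, are called its proximal share. A pair was tested with at least 50 reads in every library, which held for 7 of the 8 genes and for 4793 loci in all. The pair reads of these 7 genes ran from 106 in AGO1 with CstF-64 siRNA to 2345 in DICER1 with control siRNA. A pair is called moved where Fisher's exact test against control siRNA, adjusted over the 4793 loci by Benjamini-Hochberg, gave a p below 0.05 with a difference of at least 10 percentage points, and where the difference from no siRNA was at least 10 points in the same direction.

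With CF Im 68 siRNA, DICER1, XPO5 and AGO2 moved to their proximal ends, and no member moved to its distal end. The proximal end of DICER1 had under 5% of the locus in the other 3 libraries. It entered the pair by its reads with CF Im 68 siRNA, so its call is a description and not a test. With sites chosen on the 2 control libraries, 2 of the 6 members with a pair moved to the proximal end, as did 932 of 4574 loci. With sites chosen on all libraries, 24.2% of all loci moved to the proximal end and 2.63% to the distal end. The 7 proximal shares were all higher with CF Im 68 siRNA than in either control library, with a median difference of 9.02 points from control siRNA and 12.6 points from no siRNA. Over all 4793 loci the same medians were 4.84 and 5.23 points, with 3430 shares above control siRNA and 3261 above no siRNA. DROSHA, DGCR8, AGO1 and TNRC6A passed the adjusted p against control siRNA and missed the 10 points. With all libraries thinned to the smallest total, DGCR8 (adjusted p = 0.177), AGO1 (adjusted p = 0.0867) and TNRC6A (adjusted p = 0.299) no longer passed that p by Fisher's exact test. With CstF-64 siRNA, AGO2 alone of the 7 genes moved to its proximal end and none moved to its distal end, against 8.2% and 3.59% of all loci.

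**Figure D1:**
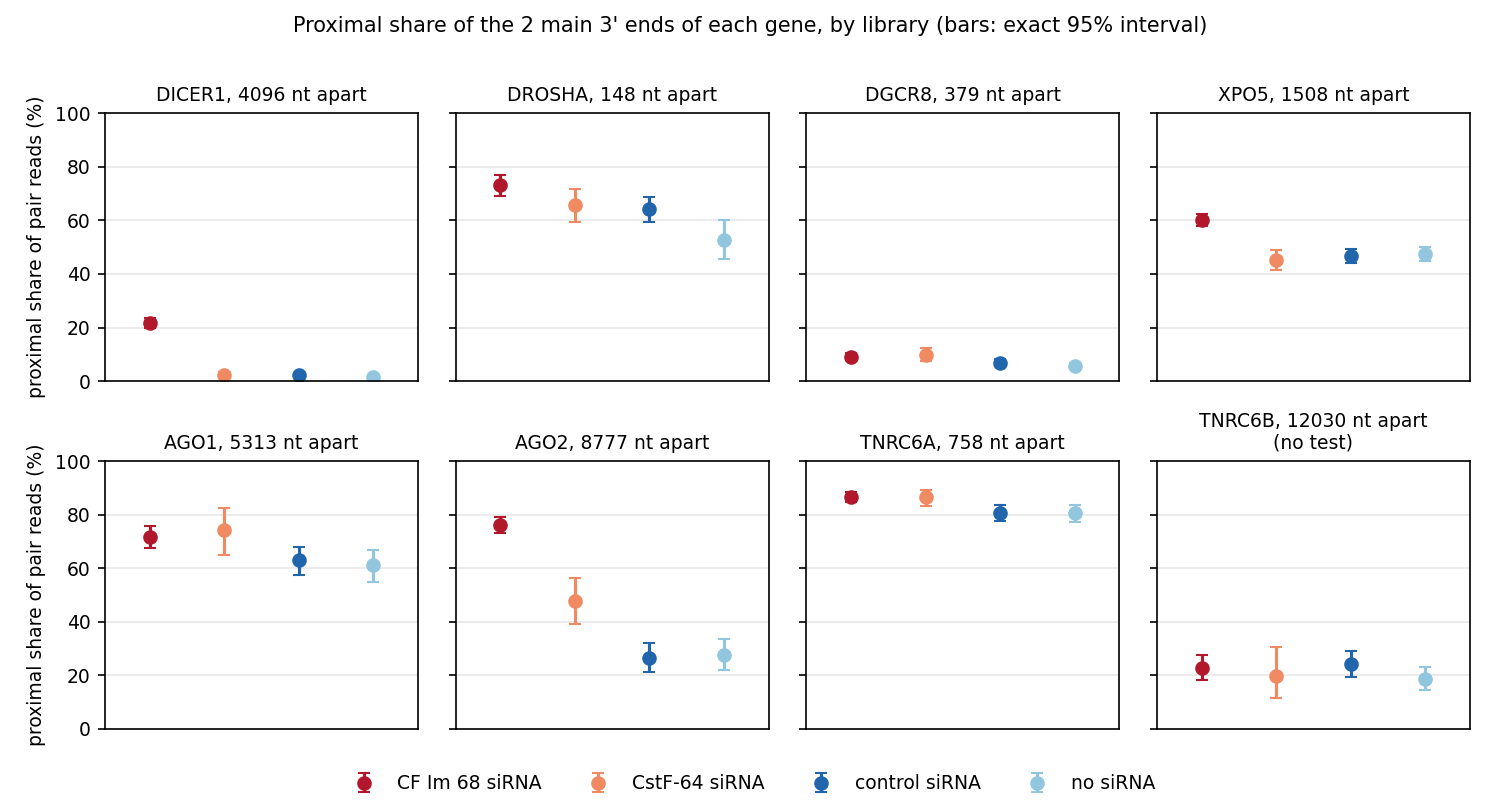
Proximal share of the pair reads, in percent, for each of the 8 genes (1 panel a gene) in the CF Im 68 siRNA, CstF-64 siRNA, control siRNA and no siRNA libraries; points are single libraries and bars are exact 95% binomial intervals. AGO2 stood at 76.3% with CF Im 68 siRNA and 47.8% with CstF-64 siRNA, above 26.4% with control siRNA and 27.6% without siRNA, whereas DICER1 was high with CF Im 68 siRNA alone.

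AGO2 had its proximal end at position 141541873 and its distal end at 141533096 on the minus strand of chromosome 8, 8777 nt apart, and the distal end lay beyond the window. The proximal share was 76.3% with CF Im 68 siRNA (617 of 809 pair reads, exact 95% interval 73.2 to 79.2%). It was 47.8% with CstF-64 siRNA (65 of 136, 39.2 to 56.5%), against 26.4% with control siRNA (70 of 265, 21.2 to 32.2%) and 27.6% without siRNA (69 of 250, 22.2 to 33.6%). The 2 control libraries overlapped, and each depleted library lay above both and apart from the other.

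The share of AGO2 with CF Im 68 siRNA was 49.9 points above control siRNA (adjusted p = 5.88e-46, Fisher's exact test) and 48.7 points above no siRNA (adjusted p = 2.72e-42). These differences were larger than those of 99.4% and 99.0% of all tested loci. With CstF-64 siRNA it was 21.4 points above control siRNA (adjusted p = 2.86e-04, Fisher's exact test) and 20.2 points above no siRNA (adjusted p = 3.43e-04). With loci reaching 5 kb instead of 10 kb, the distal end fell outside the locus and the pair became the proximal end and a site 99 nt after it. Neither difference from control siRNA then passed, at 8.42 points with CF Im 68 siRNA (adjusted p = 0.0801) and 8.60 points with CstF-64 siRNA (adjusted p = 0.350).

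In level, the proximal end of AGO2 differed between libraries far more than the distal end. The proximal end had 48.2 RPM with CF Im 68 siRNA and 8.85 RPM with CstF-64 siRNA, against 5.21 RPM with control siRNA and 4.37 RPM without siRNA. Its level with CF Im 68 siRNA was 9.26 times that with control siRNA (7.23 to 12.04) and 11.1 times that without siRNA (8.60 to 14.4). The distal end had 15.01 RPM with CF Im 68 siRNA and 9.67 RPM with CstF-64 siRNA, against 14.5 RPM with control siRNA and 11.5 RPM without siRNA. Its ratio of CF Im 68 siRNA to control siRNA was 1.03 (0.84 to 1.27). A further site 99 nt after the proximal end had 8.29, 1.498, 1.56 and 0.57 RPM in the CF Im 68 siRNA, CstF-64 siRNA, control siRNA and no siRNA libraries, so that it was also highest with CF Im 68 siRNA. The site 416 nt after the proximal end had 2.97, 3.40, 2.01 and 1.58 RPM in the same libraries, on 38, 25, 27 and 25 reads. Its ratio of CF Im 68 siRNA to CstF-64 siRNA was 0.87 (0.51 to 1.51), so the order of the depleted libraries was within counting error.

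DICER1 had its proximal end at position 95556662 and its distal end at 95552566 on the minus strand of chromosome 14, 4096 nt apart. The proximal share was 21.7% with CF Im 68 siRNA (19.9 to 23.5%) and 2.23% with CstF-64 siRNA (1.45 to 3.27%), against 2.17% with control siRNA (1.62 to 2.85%) and 1.66% without siRNA (1.12 to 2.36%). Only the CF Im 68 siRNA library stood apart, and the other 3 libraries overlapped. The difference was 19.5 points from control siRNA and 20.0 points from no siRNA, given with no p because of how the site entered. With CstF-64 siRNA it was 0.05 points from control siRNA.

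The proximal end of DICER1 had 448 reads with CF Im 68 siRNA and 25 with CstF-64 siRNA, against 51 with control siRNA and 30 without siRNA. In RPM these were 35.02 and 3.40, against 3.79 and 1.90, and the level with CF Im 68 siRNA was 9.23 times that with control siRNA (6.90 to 12.6). The distal end had 126 RPM with CF Im 68 siRNA and 149 RPM with CstF-64 siRNA, against 171 RPM with control siRNA and 112 RPM without siRNA, so the CF Im 68 siRNA library lay between the 2 controls. The most used cleavage position of either end was the same nucleotide in all 4 libraries. The proximal end of DICER1 entered the tested pair by its reads with CF Im 68 siRNA: with sites chosen on the 2 control libraries, DICER1 had no second site with 5% of the locus and no pair to test.

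XPO5 had its ends at positions 43491585 and 43490077 on the minus strand of chromosome 6, 1508 nt apart, and used them about equally in the controls. Its proximal share was 60.3% with CF Im 68 siRNA (58.0 to 62.5%) and 45.2% with CstF-64 siRNA (41.3 to 49.1%), against 46.6% with control siRNA (44.0 to 49.2%) and 47.6% without siRNA (45.03 to 50.2%). The CF Im 68 siRNA library stood above the other 3, which overlapped. It was 13.7 points above control siRNA (adjusted p = 2.91e-14, Fisher's exact test) and 12.6 points above no siRNA (adjusted p = 1.43e-12). The proximal end had 89.6 RPM with CF Im 68 siRNA and 40.9 RPM with CstF-64 siRNA, against 50.6 RPM with control siRNA and 44.2 RPM without siRNA. The distal end of XPO5 differed less between libraries, with 59.1 RPM with CF Im 68 siRNA and 49.6 RPM with CstF-64 siRNA, against 58.0 RPM with control siRNA and 48.6 RPM without siRNA.

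**Figure D2:**
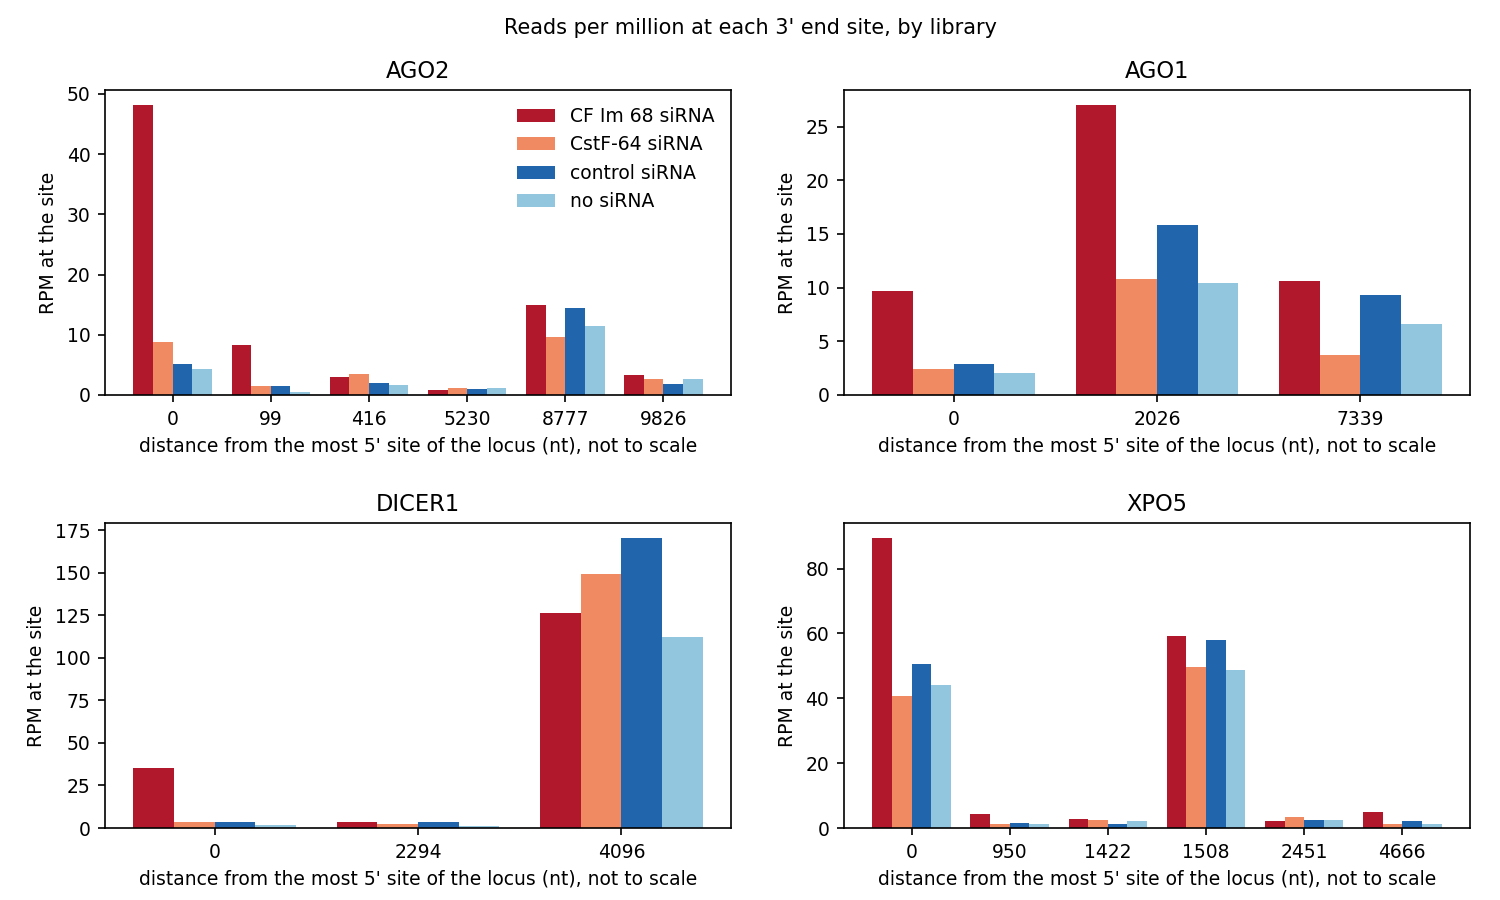
RPM at each site of AGO2, AGO1, DICER1 and XPO5 in the CF Im 68 siRNA, CstF-64 siRNA, control siRNA and no siRNA libraries (bars, 1 library each); the horizontal axis names the distance of the site in nt from the most 5′ site of the locus and is not to scale. The first AGO2 bar group reaches 48.2 RPM with CF Im 68 siRNA against 5.21 RPM with control siRNA, whereas the distal group at 8777 nt has 15.01 and 14.5 RPM.

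With CF Im 68 siRNA, the Microprocessor genes differed from control siRNA by less than AGO2, DICER1 and XPO5 did. The ends of DROSHA at positions 31401408 and 31401260 on the minus strand of chromosome 5 lay 148 nt apart. The share at the first of these was 73.2% with CF Im 68 siRNA (69.1 to 77.0%) and 65.8% with CstF-64 siRNA (59.3 to 71.9%), against 64.2% with control siRNA (59.5 to 68.7%) and 52.8% without siRNA (45.6 to 60.0%). The 2 control libraries of DROSHA were themselves 11.3 points apart, higher with control siRNA (adjusted p = 0.0231, Fisher's exact test). The library with CF Im 68 siRNA was 9.02 points above control siRNA (adjusted p = 0.00700) and 20.4 points above no siRNA (adjusted p = 1.25e-06), and the pair was not called. When all libraries were thinned to the smallest total, the difference from control siRNA was 13.2 points (adjusted p = 0.00298) and the pair was called.

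DGCR8 ended mostly at its distal site. Its ends at positions 20099013 and 20099392 on the plus strand of chromosome 22 lay 379 nt apart. The proximal share was 9.12% with CF Im 68 siRNA (7.88 to 10.5%) and 9.68% with CstF-64 siRNA (7.49 to 12.3%), against 6.74% with control siRNA (5.46 to 8.21%) and 5.56% without siRNA (4.52 to 6.75%). Both depleted libraries were above both controls, by 2.39 points (adjusted p = 0.0272, Fisher's exact test) and 2.95 points (adjusted p = 0.0787) over control siRNA, and neither pair was called. A minor DGCR8 site 35 nt after the proximal end had 54 reads with CF Im 68 siRNA and 8 with CstF-64 siRNA, against 14 with control siRNA and 19 without siRNA.

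AGO1, an Argonaute that shares AGO2's place in the pathway, used 3 sites on the plus strand of chromosome 1, at positions 36387872, 36389898 and 36395211, the last beyond the window. The last 2 of these formed the tested pair, 5313 nt apart. The proximal share was 71.8% with CF Im 68 siRNA (67.5 to 75.8%) and 74.5% with CstF-64 siRNA (65.1 to 82.5%), against 63.0% with control siRNA (57.6 to 68.2%) and 61.1% without siRNA (55.0 to 67.0%). It was 8.77 points above control siRNA with CF Im 68 siRNA (adjusted p = 0.0196, Fisher's exact test), under the 10 points of the call. With CstF-64 siRNA it was 11.5 points above control siRNA with an adjusted p of 0.105 on 106 pair reads, which did not pass.

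The first AGO1 site, left out of the pair, had 9.69 RPM with CF Im 68 siRNA and 2.45 RPM with CstF-64 siRNA, against 2.90 RPM with control siRNA and 2.02 RPM without siRNA. Its share of the reads at the 3 sites was 20.5% with CF Im 68 siRNA (17.3 to 23.9%) and 14.5% with CstF-64 siRNA (8.84 to 22.0%), against 10.3% with control siRNA (7.46 to 13.9%) and 10.6% without siRNA (7.36 to 14.6%). The CF Im 68 siRNA library stood above both controls, and the CstF-64 siRNA library overlapped all 3 others. With loci reaching 5 kb, the first and second sites formed the pair and AGO1 was called with CF Im 68 siRNA, at 10.9 points above control siRNA (adjusted p = 0.00201).

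TNRC6A ended mostly at its proximal site in every library. Its ends at positions 24836778 and 24837536 on the plus strand of chromosome 16 lay 758 nt apart. The proximal share was 86.7% with CF Im 68 siRNA (84.9 to 88.4%) and 86.5% with CstF-64 siRNA (83.3 to 89.3%), against 80.9% with control siRNA (77.9 to 83.6%) and 80.6% without siRNA (77.2 to 83.8%). The depleted libraries overlapped each other, as did the controls, and the CF Im 68 siRNA interval lay above both control intervals. The differences from control siRNA were 5.86 points with CF Im 68 siRNA (adjusted p = 0.00106, Fisher's exact test) and 5.65 points with CstF-64 siRNA (adjusted p = 0.0339), both under 10 points.

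TNRC6B, the other GW182 gene, had its main ends at positions 40719782 and 40731812 on the plus strand of chromosome 22. They lay 12030 nt apart, in different loci, and so had no tested pair. The share at the first of them was 22.8% with CF Im 68 siRNA (18.4 to 27.7%) and 19.7% with CstF-64 siRNA (11.5 to 30.5%), against 24.1% with control siRNA (19.4 to 29.3%) and 18.6% without siRNA (14.5 to 23.3%). All 4 intervals overlapped, and the CF Im 68 siRNA library lay between the 2 controls. In loci reaching 15 kb, a setting added after the data were seen, the adjusted p against control siRNA was 0.783 with CF Im 68 siRNA and 0.648 with CstF-64 siRNA.

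**Figure D3:**
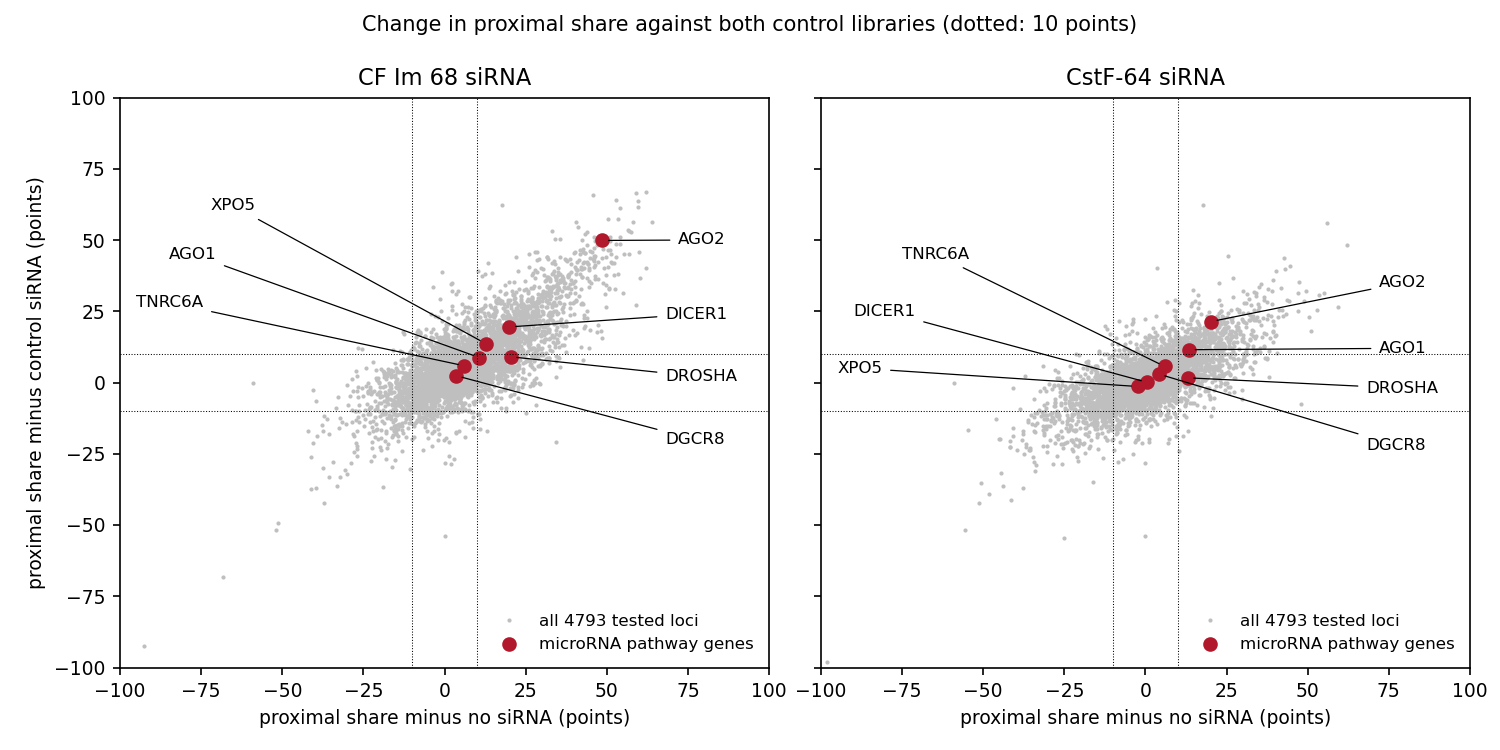
Difference in proximal share, in percentage points, from no siRNA (horizontal) and from control siRNA (vertical) for all 4793 tested loci (grey) and the 7 members with a tested pair (red), with CF Im 68 siRNA (left) and CstF-64 siRNA (right); dotted lines mark 10 points. AGO2 lies near the upper right end of the cloud with CF Im 68 siRNA, at 48.7 and 49.9 points, and the other members lie within it.

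The 2 depleted libraries were also set against each other, with the adjusted p and the 10 points alone. With CF Im 68 siRNA the proximal share was higher than with CstF-64 siRNA by 28.5 points in AGO2 (adjusted p = 9.72e-10, Fisher's exact test) and by 15.1 points in XPO5 (adjusted p = 2.37e-10). It was higher by 19.5 points in DICER1, with no p given, since the site entered by its reads with CF Im 68 siRNA. Over all loci, 24.9% were more proximal and 5.05% more distal with CF Im 68 siRNA by this rule. DROSHA differed by 7.37 points (adjusted p = 0.0929), and DGCR8, AGO1 and TNRC6A by between -2.74 and 0.20 points, with adjusted p-values from 0.748 to 0.985. By the same rule, DROSHA was the only one of the 7 pairs to differ between control siRNA and no siRNA, where 10.6% of all loci were more proximal and 11.1% more distal with control siRNA.

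The mean distance of the read ends from the most 5′ site of a locus sums the use of all sites with at least 5% of its reads. In AGO2 it was 2135 nt with CF Im 68 siRNA and 4329 nt with CstF-64 siRNA, against 5830 nt with control siRNA and 6162 nt without siRNA, with counting errors of 120, 321, 228 and 230 nt in that order. AGO2 ends were thus nearer the start in both depleted libraries, and most so with CF Im 68 siRNA. In DICER1 it was 3208 nt with CF Im 68 siRNA and 4005 nt with CstF-64 siRNA, against 4007 nt with control siRNA and 4028 nt without siRNA. In AGO1 it was 2804 nt with CF Im 68 siRNA and 2889 nt with CstF-64 siRNA, against 3578 nt with control siRNA and 3659 nt without siRNA, with counting errors of 104, 220, 140 and 158 nt in that order. The 2 Argonaute genes were thus lower than both controls in both depleted libraries. DICER1 was lower than both in the CF Im 68 siRNA library, where its counting error was 37.1 nt. Its proximal site entered by its reads in that library, so this DICER1 value is a description and not a test. In XPO5 it was 599 nt with CF Im 68 siRNA and 827 nt with CstF-64 siRNA, against 806 nt with control siRNA and 790 nt without siRNA. DROSHA, DGCR8 and TNRC6A, whose sites lie close together, differed from control siRNA by less than 50 nt in both depleted libraries.

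Levels were taken as all reads in a gene's window. In bulk RNA, fewer cells of a kind and less RNA per cell cannot be told apart. A level was called where it was at least 2-fold higher or lower than in both controls, with no test. The values of all loci given beside these levels were taken from reads at sites only, and not from all reads in a window. With CF Im 68 siRNA, AGO2 was called higher and no member lower, against 5.02% and 1.86% of the 17877 loci that had 50 reads or more in all. With CstF-64 siRNA no member was called higher or lower, against 1.82% and 6.11% of loci. Of the 8 windows, 7 had their highest RPM with CF Im 68 siRNA, DICER1 being the exception. Over the 17877 loci, CF Im 68 siRNA was above control siRNA in 9234, above no siRNA in 10316 and above CstF-64 siRNA in 11678. The loci highest with CF Im 68 siRNA were not counted, so the 7 of 8 has no share of all loci beside it. The median log2 ratio of the 8 windows was 0.50 over control siRNA and 1.04 over no siRNA with CF Im 68 siRNA, where all loci had 0.02 and 0.13.

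The AGO2 window had 66.4 RPM with CF Im 68 siRNA and 16.5 RPM with CstF-64 siRNA, against 12.1 RPM with control siRNA and 9.43 RPM without siRNA. The level with CF Im 68 siRNA was 5.48 times that of control siRNA (4.63 to 6.52) and 7.05 times that of no siRNA (5.92 to 8.45). This window ended before the distal AGO2 site, so it followed the proximal end above all. Over the whole AGO2 locus there were 78.6 RPM with CF Im 68 siRNA and 27.2 RPM with CstF-64 siRNA, against 26.2 RPM with control siRNA and 21.6 RPM without siRNA. This locus level with CF Im 68 siRNA was 3.00 times that of control siRNA and 3.63 times that of no siRNA, and it was still called higher. A locus reaches 10 kb only, and whether AGO2 has further ends was not tested. With all reads in the window extended by 15 kb, a setting added after the data were seen, the ratios were 2.47 (2.23 to 2.74) and 3.28 (2.94 to 3.65).

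AGO1 and TNRC6A were the next in order with CF Im 68 siRNA and were not called. The AGO1 window had 44.7 RPM with CF Im 68 siRNA and 14.8 RPM with CstF-64 siRNA, against 22.9 RPM with control siRNA and 14.6 RPM without siRNA. The CF Im 68 siRNA level was 1.95 times that of control siRNA (1.70 to 2.25) and 3.07 times that of no siRNA (2.63 to 3.597). This window ended before the distal AGO1 site. Over the whole AGO1 locus, the ratio was 1.69 to control siRNA (1.48 to 1.93) and 2.48 to no siRNA (2.16 to 2.86). The TNRC6A window had 117 RPM with CF Im 68 siRNA and 75.2 RPM with CstF-64 siRNA, against 59.2 RPM with control siRNA and 38.9 RPM without siRNA. With CF Im 68 siRNA it was 1.98 times that of control siRNA (1.81 to 2.16) and 3.01 times that of no siRNA (2.74 to 3.31), so that the largest ratio was to the no siRNA library in both genes.

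The other genes lay nearer to control siRNA with CF Im 68 siRNA. DGCR8 had 158 RPM with CF Im 68 siRNA and 89.2 RPM with CstF-64 siRNA, against 105 RPM with control siRNA and 113 RPM without siRNA. XPO5 had 158 RPM with CF Im 68 siRNA and 97.0 RPM with CstF-64 siRNA, against 119 RPM with control siRNA and 99.3 RPM without siRNA. For both genes the CF Im 68 siRNA library was above the other 3. DICER1 had 174 RPM with CF Im 68 siRNA and 161 RPM with CstF-64 siRNA, against 186 RPM with control siRNA and 121 RPM without siRNA. TNRC6B had 32.1 RPM with CF Im 68 siRNA and 14.8 RPM with CstF-64 siRNA, against 27.5 RPM with control siRNA and 23.5 RPM without siRNA, the CstF-64 siRNA library being the lowest. DROSHA had 49.5 RPM with CF Im 68 siRNA and 38.1 RPM with CstF-64 siRNA, against 41.3 RPM with control siRNA and 18.0 RPM without siRNA. DROSHA stood apart in the no siRNA library, with control siRNA at 2.30 times its level (1.99 to 2.66), and it was the only member at least 2-fold higher with control siRNA, against 5.2% of loci higher and 1.95% lower.

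**Figure D4:**
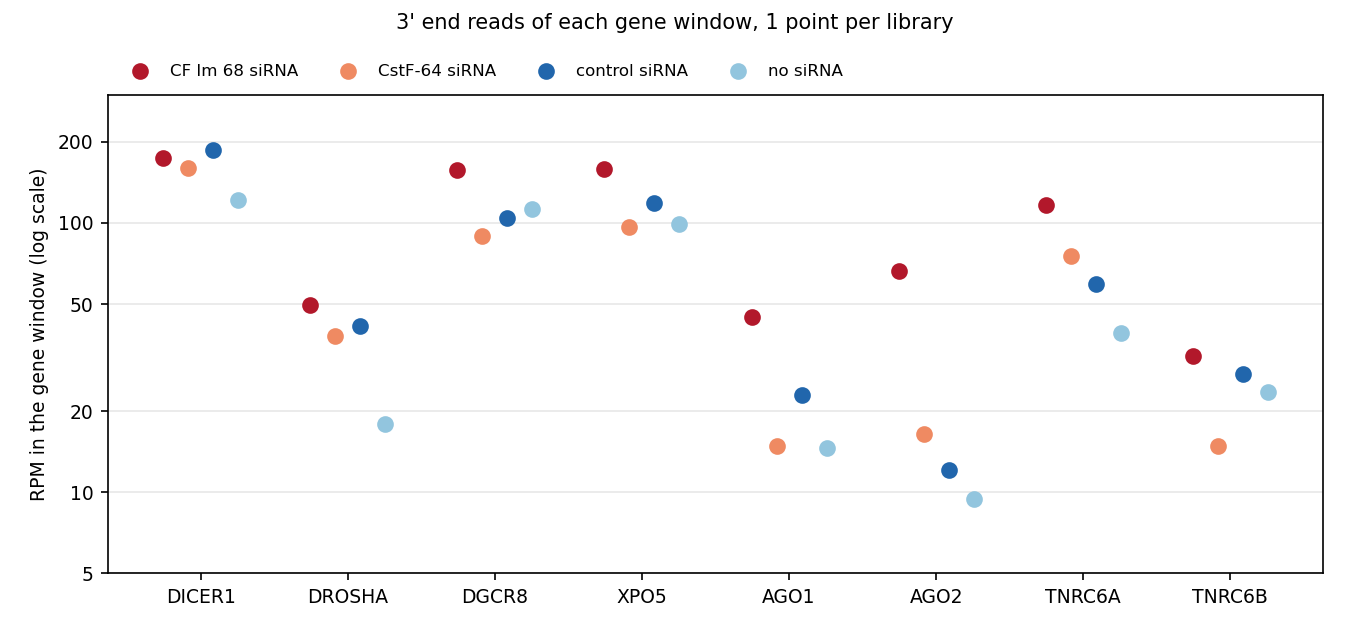
RPM in the window of each of the 8 genes (log scale), 1 point per library, in the order CF Im 68 siRNA, CstF-64 siRNA, control siRNA and no siRNA. The AGO2 point with CF Im 68 siRNA, at 66.4 RPM, is far above the other AGO2 points at 16.5, 12.1 and 9.43 RPM, and the no siRNA point of DROSHA, at 18.0 RPM, is below its other points.

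With CstF-64 siRNA, the log2 ratio to control siRNA was -0.85 for TNRC6B and -0.59 for AGO1, against 0.41 for AGO2 and 0.34 for TNRC6A. XPO5, DGCR8, DICER1 and DROSHA lay between -0.29 and -0.11, near the median of all loci of -0.19. With TMM or DESeq2 scaling, DICER1 and DROSHA had ratios above 0 with both, at 0.00052 and 0.10 with TMM, and DGCR8 had -0.02 with TMM and 0.02 with DESeq2. The direction of DICER1, DROSHA and DGCR8 therefore turned on the scaling. TNRC6B, AGO1 and XPO5 were below 0 and TNRC6A above 0 with library totals, TMM and DESeq2 alike. The XPO5 ratio, however, shrank to -0.08 with TMM and -0.05 with DESeq2. The AGO2 window misses the distal end: over the whole locus the AGO2 level with CstF-64 siRNA was 1.04 times that with control siRNA (0.87 to 1.24).

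Other genes of the pathway were described by the same measures, from a list of 10: the Argonautes AGO3 and AGO4, the GW182 gene TNRC6C, the DICER1 partners TARBP2 and PRKRA, the export GTPase RAN, the RNA helicases DDX5, DDX6 and DDX17, and LIN28B, which blocks the processing of let-7. Of these, 4 had a tested pair, and LIN28B moved to its proximal end with CF Im 68 siRNA, against 24.2% of all loci. None moved with CstF-64 siRNA, against 8.2% of all loci moved to the proximal end and 3.59% to the distal end. The LIN28B proximal share was 12.8% with CF Im 68 siRNA and 4.35% with CstF-64 siRNA, against 1.73% with control siRNA and 1.81% without siRNA. The difference with CF Im 68 siRNA was 11.0 points from control siRNA. This proximal end had under 5% of the locus in the other 3 libraries and entered the pair by its reads with CF Im 68 siRNA, so the difference is a description and no p is given. Its 2 ends lay 2940 nt apart.

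By level, 2 of the 10 windows, AGO4 and DDX6, were called higher with CF Im 68 siRNA and none lower, against 5.02% and 1.86% of all loci. The loci counted reads at sites only. The DDX6 window held no site, so it has no like among them, whereas AGO4 was also called higher over its locus. None was called higher or lower with CstF-64 siRNA, against 1.82% and 6.11% of loci. AGO4 had 21.0 RPM with CF Im 68 siRNA and 6.13 RPM with CstF-64 siRNA, against 6.99 RPM with control siRNA and 7.53 RPM without siRNA. DDX6, a helicase that acts with the GW182 proteins, had 9.93 RPM with CF Im 68 siRNA and 2.86 RPM with CstF-64 siRNA, against 4.17 RPM with control siRNA and 2.85 RPM without siRNA, and held no site of at least 1 RPM on average. Some windows of this list end before the present RefSeq end of the gene, so distal ends can be missing from these levels.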

How the data were processed

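A-seq 3′ ends were measured in 4 libraries of HEK293 cells, 1 per group. The deposited files hold the authors' unnormalized read counts for each 3′ end nucleotide of either strand. Their build is hg19 (GRCh37), as named in the submitters' processing notes, and positions are 1-based. The aligner, the filters and the treatment of repeated matches are not given in the sources used here.

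Positions were clustered (25 nt), and clusters with a mean of at least 1 RPM on chromosomes 1 to 22 and X gave 33723 sites in 18156 loci. Sites with at least 5% of the locus reads were kept, and pair reads were compared by Fisher's exact test, two-sided (scipy 1.17.1), and adjusted by Benjamini-Hochberg over 4793 loci. Shares carry exact Clopper-Pearson intervals and ratios of counts exact conditional binomial ones (95%). Log2 ratios of levels used RPM plus 1. TMM factors came from edgeR 4.0.16 and size factors from DESeq2 1.42.0, with no count test, since no group has a replicate.

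All 8 members were named, and other genes only from the list of 10 and the siRNA targets CPSF6 and CSTF2. The members, windows and lists were chosen with earlier results of these data known. Chromosome Y was left out. Sequences around the sites were not analysed here. The alternatives tried changed the clustering distance, the site, pair and locus limits, the depth, the call, the scaling, the pseudocount and the windows.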

Additional observations from a re-analysis of the deposited data

Results flagged for a closer look

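The CF Im 68 siRNA and CstF-64 siRNA libraries differed in XPO5 and AGO2 by Fisher's exact test on the pair reads. With 1 library each, this compares libraries and does not show that the effects of the depletions differ. DICER1 is described beside them and not tested, since its proximal site entered by its reads with CF Im 68 siRNA. The proximal share with CF Im 68 siRNA exceeded that with CstF-64 siRNA by 19.5 points in DICER1, 15.1 points in XPO5 and 28.5 points in AGO2. Since 24.9% of all tested loci also differed in this direction, these are values of the 3 genes and not particular to the pathway.

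A signal outside the comparisons lay within CSTF2, the gene of CstF-64. Whether its reads are ends of CSTF2 transcripts was not tested. A site at position 100077350 on the plus strand of chromosome X, 18556 nt before the main end of the gene, had 82 reads (11.2 RPM) with CstF-64 siRNA and 0 reads in each of the other libraries. A count of 0 allows up to 0.235 RPM with CF Im 68 siRNA, 0.223 RPM with control siRNA and 0.190 RPM without siRNA.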

How the results depend on the processing

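The counts of moved members kept within 1.5 times their value under the other settings except as follows. With CF Im 68 siRNA, 6 members instead of 3 moved to the proximal end at a minimum of 5 points, 1 at 20 points, and 5 when the no siRNA library was the only control; of the 4793 loci, 1624, 491 and 1676 did so at these settings, against 1161. With CstF-64 siRNA, 2 members instead of 1 moved at 5 points, 3 against no siRNA alone and 0 with loci reaching 5 kb. All loci were not counted for CstF-64 siRNA at these settings, so these counts have no background to be read against. At 5 kb the count with CF Im 68 siRNA was still 3, against 1093 of 4530 loci, but AGO1 was called and AGO2 was not. With thinned libraries it was 4, DROSHA being added, against 980 of 4419 loci. With sites of at least 10% of the locus it was 2 of 5 members, against 1064 of 3893 loci. DICER1 and DGCR8 had no pair to test at that limit. With sites chosen on the 2 control libraries it was 2 of 6 members, against 932 of 4574 loci, and DICER1 had no pair to test. At 1.5-fold, 3 members instead of 1 were higher with CF Im 68 siRNA and 1 instead of 0 was lower with CstF-64 siRNA. The share of all loci at 1.5-fold was not counted. With thinned libraries, the difference from control siRNA with CstF-64 siRNA was -0.379 points in DICER1 and 0.0153 points in XPO5, with the opposite sign to full depth; neither had passed. The CF Im 68 siRNA difference of TNRC6A was then 2.96 points. The causes were not tested. With windows extended by 15 kb, a setting added after the data were seen, AGO2 had a log2 ratio of 1.28 to control siRNA and 1.68 to no siRNA with CF Im 68 siRNA, and of -0.0029 to control siRNA with CstF-64 siRNA. No paired analysis was possible because each group has 1 library and the labels carry no replicate numbers. Depth limits TNRC6B, AGO1 and AGO2 most, with 76, 106 and 136 pair reads with CstF-64 siRNA.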

Other observations

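CPSF6, the gene of CF Im 68, itself has alternative ends. The proximal share of its pair, with ends 4415 nt apart, was 62.1% with CF Im 68 siRNA and 84.5% with CstF-64 siRNA, against 71.7% with control siRNA and 83.4% without siRNA. The CF Im 68 siRNA library was the lowest, with a difference of -9.58 points from control siRNA, under the 10 points of the call, and of -21.3 points from no siRNA. The control libraries themselves differed by -11.7 points, control siRNA minus no siRNA.

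RAN, the GTPase that gives nuclear export its direction, had a proximal share of 36.4% with CF Im 68 siRNA and 32.6% with CstF-64 siRNA, against 38.6% with control siRNA and 50.5% without siRNA. All 3 siRNA libraries lay below the no siRNA library. TARBP2 had 98.2 RPM with CF Im 68 siRNA and 193 RPM with CstF-64 siRNA, against 123 RPM with control siRNA and 122 RPM without siRNA, and TNRC6C had 29.5 and 18.7 RPM in the depleted libraries, against 17.3 and 8.03 RPM in the same controls.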
